A study of Homo sapiens with 6 samples.

Results

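The genes described here build, bind or control the actin cytoskeleton of HCT116 cells, a human colorectal carcinoma line, together with the transcription factors SRF and YAP1 and genes that these factors drive. They are 47 genes chosen by name, with earlier results of these data known. Each was taken with every array probe annotated to it under a current or an older symbol. That gave 80 of the 47310 probes, and 45 of the 20037 genes that the annotation names. TPM3 and FLNA were not analysed here. RNA was measured on Illumina HumanHT-12 beadchips in 3 samples of the parent line, PTTG1+/+ (labelled WT), and 3 samples of a PTTG1-/- derivative (labelled PTTGKO). In the derivative the gene of securin, PTTG1, had been knocked out by homologous recombination, both lines grew in standard culture, and no further treatment is named. A single derivative line was profiled, so the loss of PTTG1 and anything else that sets this line apart from its parent cannot be told apart. The sources used here do not say whether the 3 samples of a line were separate cultures, and the p-values therefore cover just the spread among these samples, which may be technical.

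Actin is kept in cells as single subunits and as filaments. Tropomyosins, calponins and transgelins lie along the filaments, myosin II pulls on them, alpha-actinins and filamins link them to each other, gelsolin and cofilins cut them, and profilins bind the free subunits. The pool of free actin also controls transcription, because the SRF cofactors MRTFA and MRTFB are held in the cytoplasm by actin subunits and enter the nucleus when those are taken up into filaments. There SRF binds the CArG box of many cytoskeletal genes. YAP1 and its relative TAZ (gene WWTR1) respond to tension on actin and to the Hippo kinases, with LATS1 and LATS2 keeping them out of the nucleus, and act through the DNA-binding TEAD proteins on genes such as CCN1, CCN2 and ANKRD1. In epithelial tumours these pathways are known for their part in cell shape, spreading and migration.

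All values are log2 intensities after background correction and quantile normalization, and a difference is the mean of the PTTG1-/- arrays minus that of the PTTG1+/+ arrays. The summed signal was 14796418.5 to 16708424.9 an array, and 35.7% to 37.3% of the probes were above background (detection p under 0.05). The lowest level called above background was 5.13 to 5.20. A probe of PTTG1 read 10.79 ± 0.05 (SD, n = 3) in PTTG1+/+ cells and was at background on all 3 PTTG1-/- arrays. Another PTTG1 probe stayed above background on all 6 arrays, at a mean of 12.03 against 11.13 (difference -0.90, SE 0.12, adjusted p = 0.00154 over all kept probes). Where these probes lie relative to the deleted sequence was not analysed here, so the second probe does not check the labels. As markers of the labelled tissue, 7 of 8 epithelial genes were above background on all 6 arrays, CLDN4 being the one that was not on any. Among 11 markers of fibroblasts and smooth muscle, 10 were above background on no array, among them COL1A2, COL3A1, PDGFRB, MYH11 and DES, and the other was COL1A1. The log2 of the mean unlogged intensity over all probes of these 11 markers was 4.63 to 4.67 in PTTG1+/+ and 4.59 to 4.65 in PTTG1-/- cells. Of 7 markers of endothelium and blood, 6 were above background on no array and none on all 6.

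Of the 47 genes, 35 were tested, and 8 of these rose in PTTG1-/- cells (22.9%) while 0 fell (limma, Benjamini-Hochberg adjusted p under 0.05 over 10642 genes). Over all genes tested, 9.58% rose and 7.79% fell. That none fell depends on the processing: without background correction 10 members were higher and 1 lower, beside 1206 and 989 of the 10642 genes. Because the 47 genes were chosen with earlier results of these data known, a higher share among them is no independent evidence. The genes that rose were CCN2, ACTA2, TAGLN, GSN, TAGLN2, CCN1, MSN and ACTN1. Of these, 4 rose at least 1.5-fold (2.03% of all genes) and 1, CCN2, at least 2-fold (0.376%). These sizes depend on the background correction: without it the log2 differences were 0.93 for CCN2, 0.53 for TAGLN and 0.57 for GSN, under 2-fold for the first and under 1.5-fold for the others, and all 3 still passed. At an unadjusted p under 0.05 there were 11 higher and 4 lower (16.9% and 14.7% of all genes), and the methods' t-test after the same adjustment gave 5 and 0 (4.91% and 3.88%). The other 27 did not pass, 20 of them with a difference of less than 0.2 in size, and in 25 of the 27 the 95% interval stayed within a 1.5-fold change. The median difference of the 35 genes was 0.09, beside 0.001 over all genes. Their median size without sign was 0.15, beside 0.14. In 12 of the 35 every PTTG1-/- array lay above every PTTG1+/+ array, and in 4 every one lay below, where over all genes 19.5% and 16.7% did so. With 3 arrays against 3, an exact two-sided permutation test of a single gene cannot go below p = 0.1. The standard error of a member's difference was between 0.07 and 0.16, and the number of arrays limits this precision. In RNA of whole cultures, fewer cells with a transcript and less of it in each cell cannot be told apart.

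**Figure D1:**
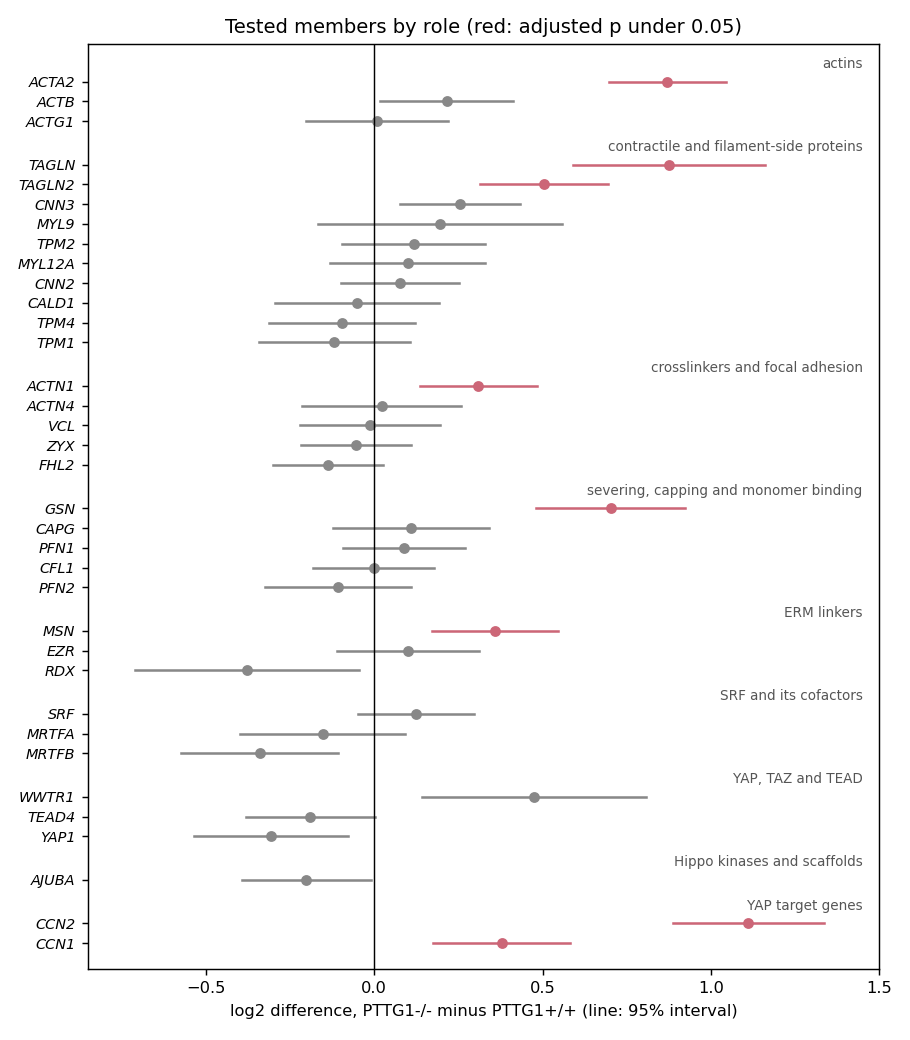
Log2 difference between PTTG1-/- and PTTG1+/+ cells for the 35 tested genes, grouped by role, with points for the limma estimate, lines for its 95% interval (n = 3 arrays a line) and red for an adjusted p under 0.05. The 8 red points are all to the right of 0 and lie in 6 of the 9 roles, while the genes of SRF and its cofactors, of YAP, TAZ and TEAD, and the single tested Hippo gene are grey.

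Among the actins, ACTA2, the alpha-actin of smooth muscle and of stress fibres in activated cells, rose 1.83-fold in PTTG1-/- cells. Its log2 intensity was 8.64, 8.77 and 8.78 in PTTG1+/+ and 9.57, 9.58 and 9.66 in PTTG1-/- cells (difference 0.87, SE 0.08, adjusted p = 1.66e-04). The PTTG1-/- arrays were all higher, with a gap between the lines far wider than the spread within either. The unnormalized intensities of the same probe were 449.8, 457.9 and 474.6 against 748.5, 791 and 952. ACTA2 is among the genes for which the study lists qPCR primers. ACTB and ACTG1, the beta- and gamma-actin of all cells, did not pass. ACTB had 13.86, 13.83 and 13.64 against 14.05, 13.91 and 14.01 (difference 0.21, SE 0.09, adjusted p = 0.125), with no overlap between the lines but a small gap. It serves as an internal control in the study's qPCR methods. ACTG1 differed by 0.01 (95% interval -0.20 to 0.22), and its sign turned when single arrays were left out.

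Of the 13 contractile and filament-side genes, 10 were tested, and the transgelins TAGLN and TAGLN2 rose. TAGLN (SM22-alpha), an actin-bundling protein that SRF is known to drive, read 5.38, 5.78 and 5.48 in PTTG1+/+ and 6.61, 6.41 and 6.25 in PTTG1-/- cells (difference 0.88, SE 0.13, adjusted p = 0.00226). Without background correction the difference was 0.53, with the saddle point form 0.46 and on the authors' processed values 0.55. The ranges did not overlap, though the PTTG1+/+ values were close to the lowest level called above background. The study names TAGLN among genes whose qPCR direction matched these arrays, a choice made on the same samples, so its rise here is no independent evidence. Unnormalized, the probe gave 82.7, 92.2 and 86.7 against 134.9, 125.1 and 127.6. Another TAGLN probe was above background on 1 array, of PTTG1+/+ cells, and the remaining one on none. TAGLN2, the transgelin of non-muscle cells, was at 9.59, 9.49 and 9.52 against 10.08, 10.13 and 9.91, a 1.42-fold rise (difference 0.50, SE 0.08, adjusted p = 0.00455). Its second probe rose as well, from 6.61, 6.81 and 6.79 to 7.26, 7.18 and 6.93, by 0.39 (SE 0.11, adjusted p = 0.0465 over all kept probes).

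No calponin or tropomyosin passed the test. CNN3, the calponin of non-muscle cells, came closest to the threshold, with 10.77, 10.92 and 10.91 against 11.12, 11.18 and 11.07 (difference 0.25, SE 0.08, adjusted p = 0.0550). Its PTTG1-/- arrays were all higher, by 1.19-fold on average. CNN2 differed by 0.08 (adjusted p = 0.548), and CNN1, the smooth muscle calponin, was above background on no array. The second CNN2 probe differed by 0.23 with every PTTG1-/- array higher (limma, adjusted p = 0.138 over all kept probes). The tropomyosins, which set what else can bind a filament, differed by -0.12 (TPM1), 0.12 (TPM2) and -0.10 (TPM4), none past the test. A second kept TPM1 probe differed by -0.23 with every PTTG1-/- array lower (limma, adjusted p = 0.129 over all kept probes). CALD1, caldesmon, differed by -0.05, and the myosin light chains MYL9 and MYL12A by 0.19 and 0.10, each with overlapping arrays. MYLK, the kinase that phosphorylates these light chains, was above background on no array at either probe.

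Of the crosslinkers and focal adhesion genes, ACTN1, the alpha-actinin of stress fibres and adhesions, rose 1.24-fold. It was at 9.97, 10.09 and 10.06 in PTTG1+/+ and 10.42, 10.33 and 10.29 in PTTG1-/- cells (difference 0.31, SE 0.08, adjusted p = 0.0247). The lines did not overlap, but the call held without PTTG1-/- replicate 3 and was lost without any other array (adjusted p = 0.0631 to 0.0868, limma). It was also lost with median scaling (adjusted p = 0.0534) and without normalization between arrays (adjusted p = 0.0664). ACTN4, the other alpha-actinin of non-muscle cells, differed by 0.02 (95% interval -0.21 to 0.26). VCL (vinculin) and ZYX (zyxin), which join filaments to adhesions, differed by -0.01 and -0.05 at the probes used. FHL2, a LIM protein and known SRF target, was at 11.33, 11.28 and 11.28 against 11.10, 11.21 and 11.17 (difference -0.14, adjusted p = 0.235), with every PTTG1-/- array lower.

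GSN, gelsolin, which cuts and caps filaments when calcium rises, increased 1.63-fold. Its arrays read 7.05, 7.24 and 7.36 in PTTG1+/+ and 7.86, 8.02 and 7.85 in PTTG1-/- cells (difference 0.70, SE 0.10, adjusted p = 0.00192), without overlap. Like TAGLN it is on the study's list of genes matched by qPCR, chosen on these samples. A second GSN probe was above background on no array. The difference was 0.57 without background correction and 0.54 with the saddle point form, and still passed. The other genes of this role did not pass. CAPG, a capping relative of gelsolin, differed by 0.11 (adjusted p = 0.519), PFN1 and PFN2, the profilins, by 0.09 and -0.11, and CFL1, cofilin, by close to 0 (95% interval -0.18 to 0.18), with a sign that turned under other scalings. CFL2, the cofilin of muscle, had one probe above background on 1 array and another on none, and was not tested.

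The ERM proteins moesin, radixin and ezrin tie actin filaments to the plasma membrane, and MSN alone of their genes passed the test. MSN (moesin) rose 1.28-fold, from 10.19, 10.13 and 10.03 to 10.57, 10.44 and 10.41 (difference 0.36, SE 0.08, adjusted p = 0.0186), with the lines apart. Its call was lost without replicate 1 of PTTG1-/- and without replicate 2 or replicate 3 of PTTG1+/+ cells (adjusted p = 0.0612 to 0.0679, limma). RDX (radixin) was lower on average but did not pass, with 8.94, 8.72 and 8.92 against 8.23, 8.39 and 8.84 (difference -0.38, SE 0.15, adjusted p = 0.111). The third PTTG1-/- array lay among the PTTG1+/+ arrays, and without it the difference was -0.56 and RDX passed (adjusted p = 0.00996). EZR (ezrin), the ERM protein of gut epithelium, differed by 0.10 (adjusted p = 0.507). The second EZR probe differed by 0.22 with every PTTG1-/- array higher, and did not pass (limma, adjusted p = 0.116 over all kept probes). Whether the ERM genes differ from one another was not tested.

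**Figure D2:**
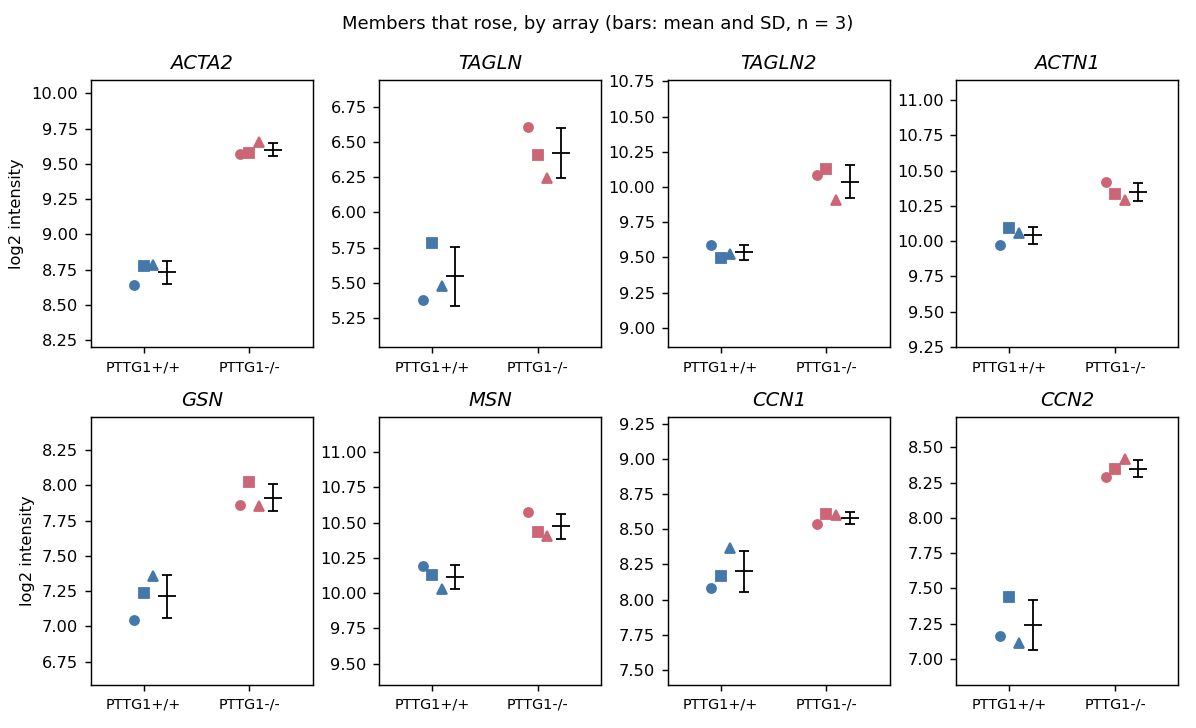
Log2 intensity on each array for the 8 genes that rose, with circles, squares and triangles for replicates 1, 2 and 3 and bars for the mean and SD of 3 arrays. Each panel has its own axis of the same length, and in all 8 the PTTG1-/- arrays lie above the PTTG1+/+ arrays, by 0.31 (ACTN1) to 1.11 (CCN2) on average.

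SRF and its cofactors did not pass in either direction. SRF was at 10.04, 10.14 and 10.09 in PTTG1+/+ and 10.29, 10.15 and 10.20 in PTTG1-/- cells (difference 0.12, SE 0.08, adjusted p = 0.303). These arrays did not overlap, but PTTG1-/- replicate 2 and PTTG1+/+ replicate 2 nearly met. MRTFB was at 6.22, 5.99 and 6.09 against 5.57, 5.84 and 5.86 (difference -0.34, SE 0.10, adjusted p = 0.0519), lower on every PTTG1-/- array and just outside the threshold. Without PTTG1-/- replicate 3 it passed (adjusted p = 0.0426). MRTFA differed by -0.15 with overlapping arrays (adjusted p = 0.377).

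Because SRF acts through the CArG box, the promoters of the members were searched for it, that is for CC, 6 bases that are A or T, and GG. Promoter sequences were the 250 bases before the first start listed for each gene in RefSeq (GRCh38.p14). They matched 40 of the 47 genes, and ACTB, TAGLN, CCN1, PFN2, MYL9, TEAD1 and TEAD4 were not matched. A CArG box was present in 7 of the 40 (17.5%), beside 407 of all 35116 promoters (1.16%). The members include SRF and genes chosen because it drives them, so this excess can follow from the choice alone. It was in 0 of the 6 matched genes that rose and in 5 of the 23 tested genes that did not pass (21.7%). The stretches of those 5 genes are printed 5' to 3' on the strand of the gene, with the CArG boxes in capitals, so that the box can be read in its setting.
ACTG1 (chr17:81512859-81512918, minus strand): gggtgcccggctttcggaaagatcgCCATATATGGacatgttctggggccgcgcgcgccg
CNN2 (chr19:1026494-1026553, plus strand): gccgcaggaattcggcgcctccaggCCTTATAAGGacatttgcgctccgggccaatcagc
TPM4 (chr19:16067340-16067399, plus strand): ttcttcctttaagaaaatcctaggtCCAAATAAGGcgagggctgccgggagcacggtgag
FHL2 (chr2:105438580-105438639, minus strand): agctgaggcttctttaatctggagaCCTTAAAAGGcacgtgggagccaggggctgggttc
SRF (chr6:43171214-43171268, plus strand): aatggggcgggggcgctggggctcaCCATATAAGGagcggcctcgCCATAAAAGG
SRF, which is known to act on its own gene, holds 2 boxes, the second reaching the last base before the start. The differences of these genes were 0.01 (ACTG1), 0.08 (CNN2), -0.10 (TPM4), -0.14 (FHL2) and 0.12 (SRF). MYLK and FLNA also hold a box but gave no tested value. A match is a run of letters in this window, and boxes outside it or before other starts of a gene were not looked for. TAGLN and CCN1, which rose, were not matched. The 0 of 6 therefore does not show that the genes that rose lack a CArG box.

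YAP1 and TAZ had differences of opposite sign, and neither passed. YAP1 was at 9.33, 9.30 and 9.22 in PTTG1+/+ and 8.89, 8.85 and 9.19 in PTTG1-/- cells (difference -0.31, SE 0.10, adjusted p = 0.0684). All PTTG1-/- arrays were lower, the third only just, and without it YAP1 passed (difference -0.41, adjusted p = 0.0113). WWTR1, the gene of TAZ, was at 5.64, 5.60 and 5.61 against 5.79, 6.01 and 6.46 (difference 0.47, SE 0.15, adjusted p = 0.0562). Here every PTTG1-/- array was higher, but they were spread widely (SD 0.34) while the PTTG1+/+ arrays were close together (SD 0.02). Without PTTG1-/- replicate 1 it passed (adjusted p = 0.0192).

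Among the members' TEAD genes, whose proteins bring YAP1 and TAZ to DNA, TEAD4 was the one tested, with 9.15, 9.19 and 9.29 against 9.06, 9.09 and 8.89 (difference -0.19, SE 0.08, adjusted p = 0.160). Its PTTG1-/- arrays were all lower, by a narrow gap. TEAD1 was above background on no array at either probe. TEAD2, read from the list of other Hippo pathway genes and named after its value was seen, was at 9.95 against 9.98 on average (difference 0.03, adjusted p = 0.795). TEAD3 was above background on 2 of the 6 arrays, both of PTTG1-/- cells, and read 5.03, 4.78 and 4.85 against 5.62, 5.14 and 5.16, near the lowest level that can be called. Of the Hippo kinases and scaffolds, LATS1, LATS2, AMOTL1 and AMOTL2 were above background on no array. AJUBA, a LIM protein that binds LATS kinases, differed by -0.20 (SE 0.09, adjusted p = 0.139), its arrays overlapping at 6.39 in PTTG1+/+ replicate 2 and 6.40 in PTTG1-/- replicate 2.

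**Figure D3:**
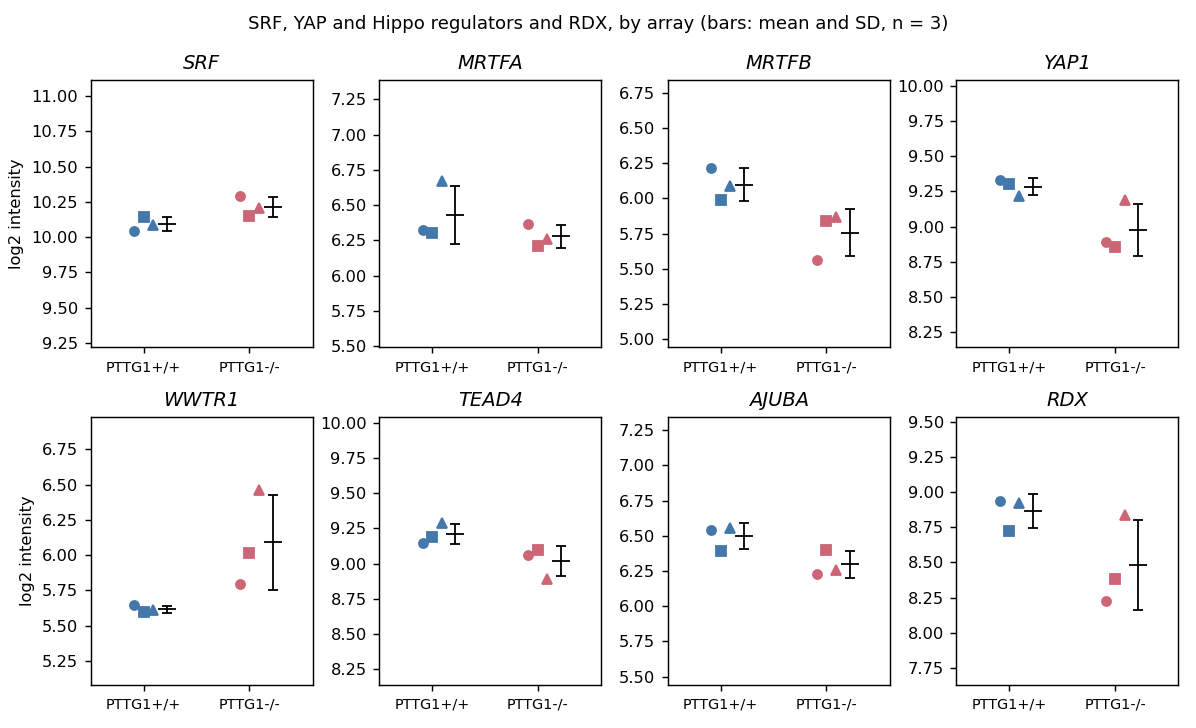
Log2 intensity on each array for SRF, MRTFA, MRTFB, YAP1, WWTR1, TEAD4, AJUBA and RDX, with circles, squares and triangles for replicates 1, 2 and 3 and bars for the mean and SD of 3 arrays. Each panel has its own axis of the same length; the third PTTG1-/- array is the highest of its line for YAP1 (9.19), RDX (8.84) and WWTR1 (6.46).

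The YAP target genes CCN2 and CCN1 both rose. CCN2 (connective tissue growth factor), a secreted protein that binds integrins and matrix and is widely used to read YAP1 activity, had the largest difference of the 35 genes. It was at 7.16, 7.44 and 7.11 in PTTG1+/+ and 8.29, 8.34 and 8.42 in PTTG1-/- cells, a 2.16-fold rise (difference 1.11, SE 0.10, adjusted p = 1.69e-04). The lines were apart by far more than their spread. Unnormalized, the probe gave 188.5, 204.8 and 177.9 against 333.8, 361.7 and 427.4. Its second probe, a dim one that was above background on 5 of 6 arrays, read 5.77, 5.63 and 4.91 against 5.86, 6.60 and 6.42. These arrays also did not overlap, though PTTG1-/- replicate 1 came close to the PTTG1+/+ arrays (difference 0.86, SE 0.24, adjusted p = 0.0471 over all kept probes). CCN1 (CYR61), a relative of CCN2 with like roles in adhesion, rose 1.30-fold, from 8.08, 8.17 and 8.36 to 8.53, 8.61 and 8.60 (difference 0.38, SE 0.09, adjusted p = 0.0207). Its lines did not overlap, and the call was lost without replicate 2 of either line and without replicate 1 of PTTG1+/+ cells (adjusted p = 0.0687 to 0.0800, limma). ANKRD1, a further target gene known from cardiac muscle, was above background on no array.

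TEAD proteins bind GGAATG, and the CCN2 promoter is known for such sites. The 250 bases before its start (RefSeq, GRCh38.p14) are printed 5' to 3' on the strand of the gene, since CCN2 had the largest rise, with each GGAATG in capitals.
CCN2 (chr6:131951373-131951622, minus strand): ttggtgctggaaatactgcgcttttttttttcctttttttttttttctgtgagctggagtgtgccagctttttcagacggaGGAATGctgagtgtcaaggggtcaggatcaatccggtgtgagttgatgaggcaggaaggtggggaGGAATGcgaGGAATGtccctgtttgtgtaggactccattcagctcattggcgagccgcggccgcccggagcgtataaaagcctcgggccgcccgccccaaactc
The motif occurs 3 times, ending 164, 99 and 90 bases before the start. On either strand (CATTCC on the other), GGAATG was present in 6 of the 40 matched members (15%), namely CALD1, VCL, PFN1, YAP1, CCN2 and ANKRD1. Over all promoters it was present in 4175 (11.9%), so the share among the members was near the background. CCN2 was the only one of the 6 matched genes that rose to hold it, beside 4 of the 23 tested genes that did not pass (17.4%).

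For 15 of the tested genes more than 1 probe was kept, and in 11 of these all kept probes had a difference of the same sign. Over single probes, 10 of the members' 52 kept probes rose and 0 fell (6.88% and 5.88% of all 17357 kept probes), the 8 used for the genes and the second probes of CCN2 and TAGLN2. The 3 probes of ACTB differed by 0.21, 0.19 and 0.26, none past the test. Probes of 4 genes disagreed in sign. CALD1 gave -0.05 and 0.22, ZYX -0.05 and 0.28, TPM4 -0.10 and 0.09, and VCL -0.01, -0.05 and 0.21, none past the test (adjusted p at least 0.0991 over all kept probes). Which transcripts each probe reads was not analysed here. The brightest probe of VCL had overlapping arrays, while another was at 7.10, 7.13 and 7.08 against 7.32, 7.31 and 7.33. For ZYX the second probe read 8.77, 8.72 and 8.34 against 8.99, 8.87 and 8.80, with PTTG1+/+ replicate 3 the low array. The 28 probes of members that were not kept were read on too few arrays to be tested.

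**Figure D4:**
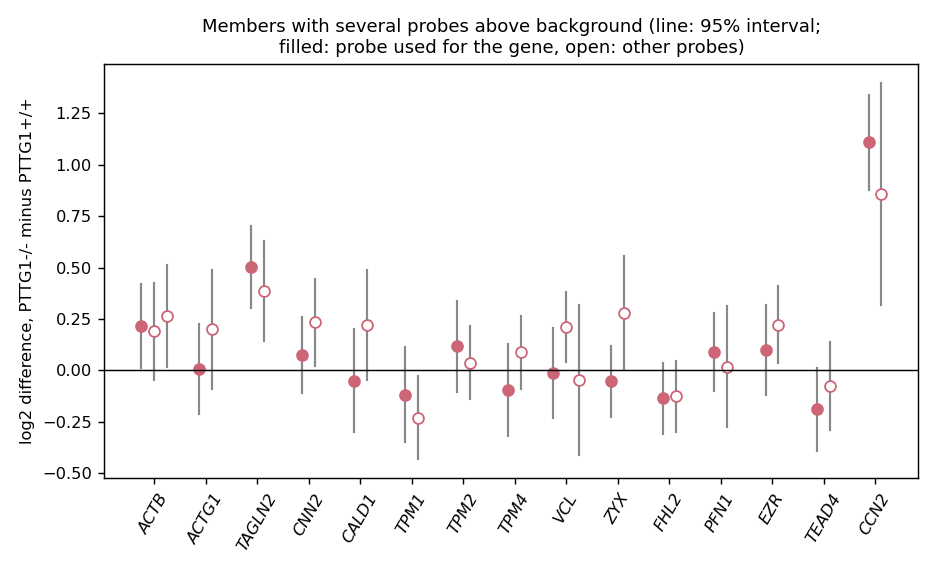
Log2 difference, with its 95% interval, of each kept probe of the 15 genes with more than 1, filled for the probe used for the gene and open for the others. Both probes of CCN2 and of TAGLN2 lie above 0, while those of CALD1, TPM4, VCL and ZYX fall on both sides of it.

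Arrays of a line did not weigh equally. PTTG1-/- replicate 3 was the array farthest from the rest of its line in 18 of the 35 genes (51.4%, beside 45.8% of all genes), and PTTG1+/+ replicate 1 in 17 (48.6%, beside 37.7%). Without PTTG1-/- replicate 3 the number of members past the test was 12, with 9 higher and 3 lower, the lower ones being RDX, YAP1 and MRTFB. Over all genes 10.9% were then higher and 9.6% lower. Without PTTG1+/+ replicate 2 it was 5, all higher, beside 5.4% of all genes higher and 4.13% lower. CCN2, ACTA2, GSN, TAGLN and TAGLN2 passed whichever array was left out, with a highest adjusted p = 0.0253 (limma, TAGLN2).

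**Figure D5:**
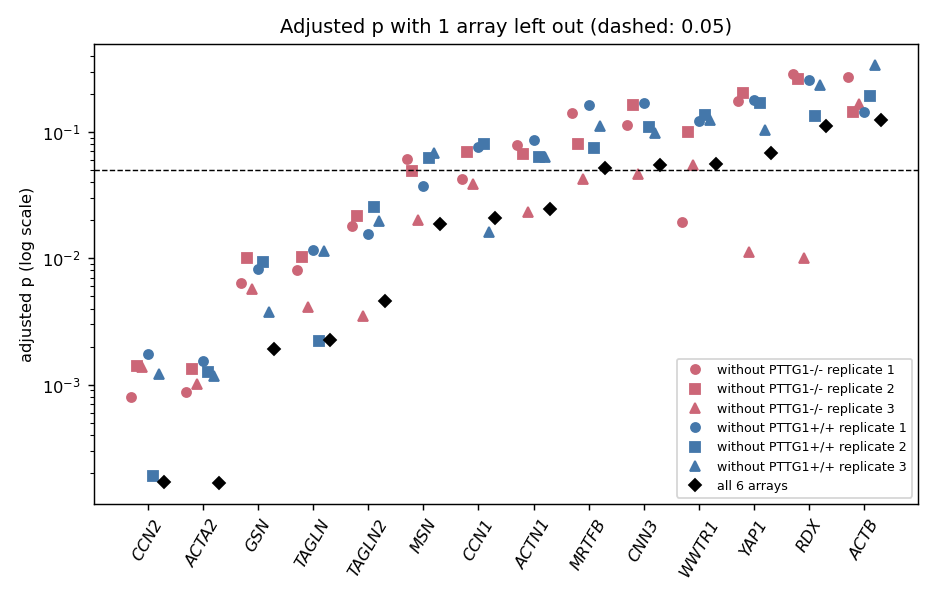
Adjusted p of 14 genes with all 6 arrays (black) and with 1 array left out (coloured), on a log scale, with the dashed line at 0.05. CCN2, ACTA2, GSN, TAGLN and TAGLN2 stay below the line, MSN, CCN1 and ACTN1 lie on both sides of it, and MRTFB, CNN3, YAP1 and RDX go below it without PTTG1-/- replicate 3.

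Further genes of the same pathways were read from lists of names, whose counts stand beside the 9.58% of all genes that rose and the 7.79% that fell. These lists too were chosen with earlier results of these data known, so their counts are no independent evidence. Of 17 other YAP targets, 13 were tested, 5 rose, none fell and 8 did not pass. The median difference was 0.26 (all genes 0.001), the same with IGFBP3 at its bound, and the lowest was -0.23. IGFBP3, a secreted binder of insulin-like growth factors, read 6.55, 6.40 and 6.32 in PTTG1-/- cells and was above background on no PTTG1+/+ array. It was at least 2.38-fold higher, the bound being set against the lowest level called above background. IGFBP3 entered the test through its PTTG1-/- arrays alone and so had to differ, and without it the rises number 4. CRIM1, a membrane protein that binds bone morphogenetic proteins, rose 2.00-fold, from 5.20, 5.55 and 5.85 to 6.56, 6.32 and 6.72 (adjusted p = 0.00399). Its PTTG1+/+ arrays were spread widely (SD 0.33), and replicate 1 was close to the lowest level called above background. MYOF, myoferlin, a membrane repair protein, rose 1.49-fold (adjusted p = 0.00122). NT5E (CD73), which makes adenosine at the cell surface, rose 1.46-fold, and ASAP1, an Arf GTPase activator at adhesions, 1.19-fold (adjusted p = 0.0173 and 0.0477). Of 22 other Hippo pathway genes 19 were tested, with a median difference of 0.03. MAP4K4, a kinase that can phosphorylate LATS, rose, from 7.32, 7.34 and 7.16 to 7.74, 7.74 and 7.95 (adjusted p = 0.00455), and the other 18 did not pass.

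Of 24 other SRF targets 15 were tested, of which 3 rose and 2 fell (median difference -0.02). TGFB1I1 (Hic-5), a focal adhesion protein, rose 1.63-fold, from 6.57, 6.63 and 6.85 to 7.28, 7.47 and 7.41 (adjusted p = 0.00166). PDLIM5, a Z-line and stress fibre adaptor, and SMTN, smoothelin, rose 1.42-fold and 1.39-fold (adjusted p = 0.00527 and 0.0128). EGR1 and JUNB, immediate early transcription factors that SRF drives with ternary complex factors, fell by 0.44 and 0.37 on the log2 scale (adjusted p = 0.00639 and 0.0418). EGR1 is also drawn in the study's network, built from these arrays, so its fall adds no independent evidence. The smooth muscle genes DES, MYH11 and ACTG2 in this list, which are also among the markers, were above background on no array.

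Of 36 genes of actin nucleation and turnover 29 were tested, 3 rose and none fell, with a median of 0.06, a share close to that over all genes. TMSB4X, thymosin beta-4, which holds free actin subunits, read 13.38, 13.52 and 13.49 against 13.79, 13.84 and 13.75, a 1.26-fold rise (adjusted p = 0.0187). EVL, which extends filaments, and CORO1B, a coronin of the leading edge, each rose 1.24-fold (adjusted p = 0.0233 and 0.0236).

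Some epithelial markers also differed in the same comparison. Of the 7 tested, 4 fell, beside 7.79% of all genes. This list too was chosen with earlier results of these data known, so the count is no independent evidence. The 4 were CLDN7 (tight junction), CDH1 (E-cadherin), ELF3 (an epithelial transcription factor) and EPCAM (an adhesion protein). They fell by 0.70, 0.53, 0.47 and 0.32 on the log2 scale (limma, adjusted p = 7.78e-04, 0.00395, 0.00487 and 0.0337). The keratins KRT19, KRT18 and KRT8 did not pass, with differences of 0.24 (adjusted p = 0.0522), 0.06 and -0.17, and KRT19 was higher on every PTTG1-/- array. The log2 of the mean unlogged intensity over all probes of the epithelial list was 10.86 to 10.92 in PTTG1+/+ and 10.69 to 10.80 in PTTG1-/- cells. The brightest probes weigh most in this value. Their part in the rise of the cytoskeletal and YAP target genes was not tested. The smooth muscle and fibroblast markers other than COL1A1 were at background on every array, while ACTA2 and the brightest TAGLN probe were above it on all 6. The other TAGLN probes were not kept. What these levels say about the kind of cell was not tested.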

How the data were processed

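RNA of 3 PTTG1+/+ and 3 PTTG1-/- samples was labelled with biotin and read on 1-colour HumanHT-12 V4 arrays. The authors deposited unnormalized intensities, detection p-values and processed log2 values, per the labels made with the manufacturer's protocol and Partek 6.5. The deposited detection column rises with intensity, so 1 minus it was used as the detection p. For the scanner software and for the normalization of the processed values, nothing is given in the sources used here. In R 4.3.3, limma 3.58.1 (neqc, offset 16) corrected background, quantile normalized and took log2. Lines without a probe name (12) were left out. Of 47310 probes the annotation gives 1 gene for 30107, several for 8 and none for 17195; 30068 symbols were updated by gene identifier, 18 by accession and 21 kept. Probes with a detection p under 0.05 on at least 3 of 6 arrays were kept (17357), with the brightest for each gene (10642 genes). Lines were compared with lmFit and eBayes over all genes, and single probes over all kept probes, after a test on simulated data. Named are all members and, from each further list, up to 4 genes with the smallest p past the threshold; ASAP1 and JUNB were added after their values were seen. Members and lists were chosen with earlier results of these data known. Alternatives covered background, scaling, filter, probe choice, variance model, single arrays, thresholds, the replicate number as a block and the processed values. Results of 1 further gene list are not reported here.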

Additional observations from a re-analysis of the deposited data

How the results depend on the processing

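The number of members past the threshold (8) was 13 with a variance trend (11 higher, 2 lower), 5 with the methods' t-test, 5 at an adjusted p under 0.01 and 4 at 1.5-fold or more. It was 12 on the authors' processed values, and with 1 array left out it was between 5 and 12. The number of all genes past it (1849) was 1140 after median scaling, 1044 without normalization between arrays, 936 with the methods' t-test, 742 at an adjusted p under 0.01 and 404 at 1.5-fold or more, and between 1014 and 2183 with 1 array left out. With the replicate number as a block it was 1346 genes and 7 members, ACTN1 being lost (adjusted p = 0.0644, limma). Deviations of same-numbered arrays correlated at -0.07, -0.00404 and -0.12. Differently numbered arrays reached a like size, with 0.11 for PTTG1+/+ replicate 1 and PTTG1-/- replicate 3. Whether same-numbered samples were handled together cannot be told from these correlations. ACTA2, CCN2, GSN and TAGLN2 passed under all 20 alternatives run for them, TAGLN under 19 (not the methods' t-test after adjustment, 0.0553), MSN under 16, CCN1 under 15 and ACTN1 under 12. Among members not past the threshold, CNN3 passed under 7 alternatives, YAP1 and WWTR1 under 5 each, RDX under 3, MRTFB and ACTB under 2 each.

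Signs turned only for members whose difference was at most 0.10 in size, none past the test on either side. With the mean of the kept probes CALD1 was 0.085, VCL 0.051 and ZYX 0.11. CFL1 was 0.033 with median scaling, 0.040 with no normalization and 0.029 with cyclic loess, and -0.048 to 0.038 with 1 array left out. With 1 array left out, ACTG1 ranged from -0.055 to 0.072, CALD1 from -0.15 to 0.0074, MYL12A from -0.0072 to 0.16, ACTN4 from -0.080 to 0.098 and VCL from -0.074 to 0.055. No scaling moved the median of all genes by more than 0.02. Leaving out an array kept the normalization of all 6, so it tests the fit alone. A normexp correction by saddle point was added after seeing the data in place of the planned one by moments, which was not run. It gave 11 members (9 higher, 2 lower), beside 2274 of all genes. Differences of dim members were smaller without background correction, at 0.53 for TAGLN, 0.28 for WWTR1 and -0.20 for MRTFB, against 0.88, 0.47 and -0.34. Members above background on no array have no measured difference.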
